A study of Mus musculus with 16 samples.

Results

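Chromatin accessibility at the peak of experimental autoimmune encephalomyelitis (EAE) was compared with accessibility at the presymptomatic stage of the same disease. Members were chosen by label: the 4 ATAC-seq libraries titled Peak were set against the 4 titled Presymptomatic, which makes 8 of the 16 libraries in the series. All of them are labelled as retinal ganglion cells isolated by flow sorting from eyes of female mice in which EAE had been induced at 7 to 8 weeks of age, so both groups carry the induction and differ by label in disease stage alone. The labels give neither the strain, the day of collection, the clinical score nor the inducing agent, nor whether each library stands for a separate animal or a pool of eyes. A p-value here is measured against the scatter of these libraries, which may in part be technical. The other 8 libraries, 5 naive and 3 from disease onset, entered the same model, where they help estimate that scatter, and are given as side values. Of the 37255 gene intervals in the deposited table, 29902 passed a filter on low counts and were tested.

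ATAC-seq uses a transposase that inserts sequencing adapters where DNA is not covered by nucleosomes, so read density follows how open the chromatin is. Retinal ganglion cells are the output neurons of the retina, and their axons form the optic nerve. EAE is an autoimmune attack on central myelin in which the optic nerve is often inflamed, and ganglion cells can be lost as the disease advances. The presymptomatic stage follows induction but precedes motor signs, and the peak is the time of strongest motor signs.

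No gene differed between peak and presymptomatic libraries past the threshold. With edgeR's quasi-likelihood test, 0 of 29902 genes (0.0%) had a Benjamini-Hochberg adjusted p under 0.05, and the smallest adjusted p was 0.9994. At an unadjusted p under 0.05 there were 1019 genes (3.41%), fewer than the share that uniform p-values would give, of which 660 (2.21%) were higher and 359 (1.2%) lower at peak. DESeq2, limma-trend and limma voom with quality weights also called 0 genes, with 1362, 1327 and 1700 genes at an unadjusted p under 0.05. The 4 peak values lay wholly above or wholly below the 4 presymptomatic values in 813 genes (2.72%), 451 of them higher (1.51%) and 362 lower (1.21%) at peak. Accordingly, the genes and groups below are described by their values, and "higher" and "lower" state where means or fold changes lay, not that a test was passed.

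**Figure D1:**
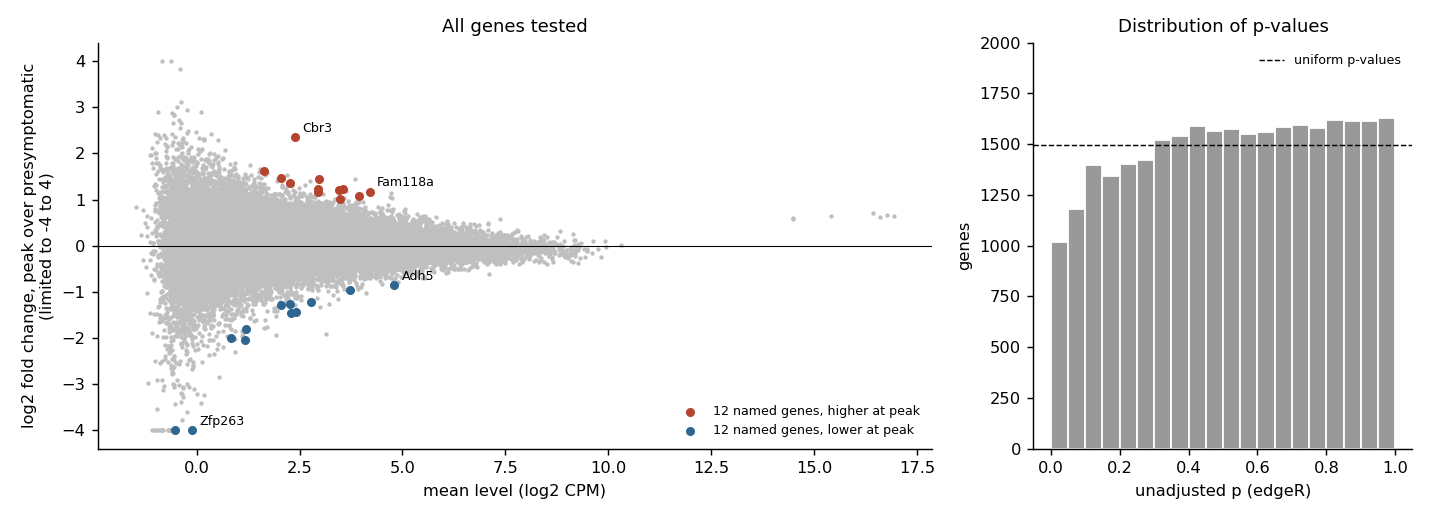
Left, log2 fold change of peak over presymptomatic libraries against the mean level in log2 CPM for the 29902 genes tested, with the 24 genes described individually in colour; right, the distribution of unadjusted edgeR p-values with the uniform level as a dashed line. Large fold changes sit at low levels, the isolated points at far right are mitochondrial genes, and small p-values are less frequent than the uniform level.

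Each counted interval was a gene body trimmed by 1000 bp from either end, so for most genes the start was not counted and a value describes openness inside the gene. Levels are given as CPM (reads per megaread) scaled by TMM, edgeR's trimmed-mean factor. Peak libraries held 3.39, 3.7, 3.45 and 1.58 megareads (M) in nuclear intervals in replicates 1 to 4, and presymptomatic libraries held 8.17, 7.02, 8.07 and 2.23 M. The means were 3.03 ± 0.978 M at peak and 6.37 ± 2.81 M at the presymptomatic stage (SD, n = 4 each; two-sided exact permutation p = 0.114, adjusted over 5 library measures 0.429), where the smallest p that 4 against 4 can give is 0.0286. Mitochondrial intervals took 36.7, 63.8, 54.0 and 57.5% of interval reads at peak and 45.2, 34.4, 48.9 and 44.1% at the presymptomatic stage (exact permutation p = 0.171, adjusted 0.429). Intervals of olfactory and vomeronasal receptor genes, which serve here as background because they are largely silent outside nasal epithelia, took 0.282, 0.274, 0.487 and 0.236% of nuclear reads at peak and 0.298, 0.389, 0.351 and 0.360% at the presymptomatic stage (exact permutation p = 0.657). Thus 3 peak libraries lay below all presymptomatic ones and peak replicate 3 lay above them. That library also had the largest chromosome X share of the 8, 7.79% of nuclear reads, against 3.79 to 4.64% in the other peak libraries and 4.41 to 5.48% in presymptomatic ones. Start enrichment, the read density of windows that take in the gene start over that of long genes, was 2.42 ± 0.379 at peak and 2.65 ± 0.274 at the presymptomatic stage (exact permutation p = 0.343).

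**Figure D2:**
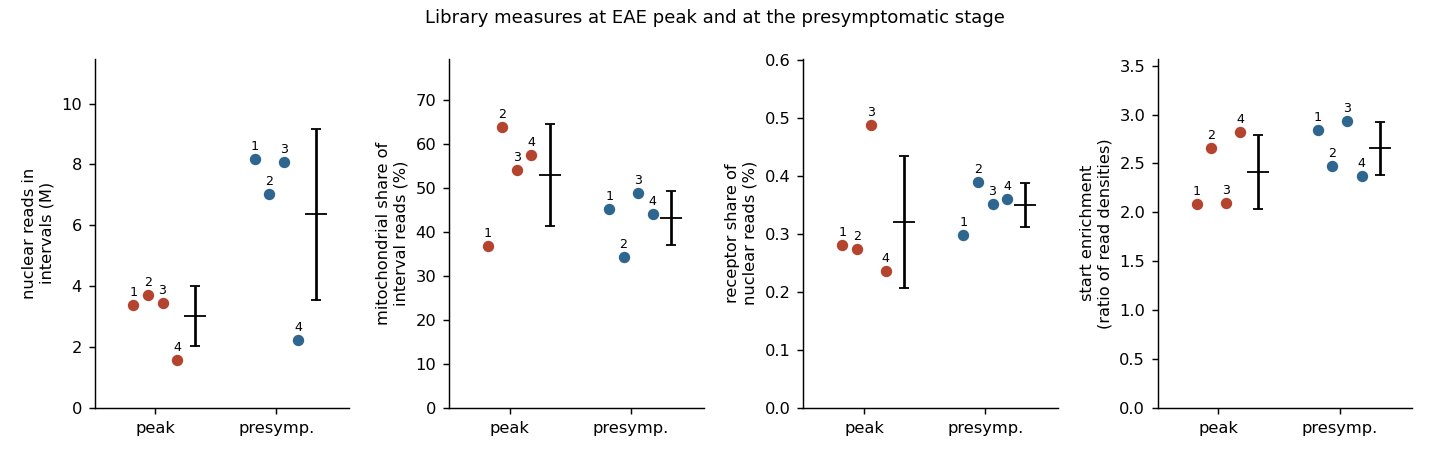
Nuclear reads in intervals (M), mitochondrial share of interval reads (%), receptor share of nuclear reads (%) and start enrichment (a ratio) in each peak (left) and presymptomatic (right) library, numbered by replicate; bars give mean and SD (n = 4 each). Peak replicate 3 stands at 0.487% in the receptor share, and both replicate 4 libraries are the shallowest of their group.

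Peak libraries were less alike than presymptomatic ones. They also held fewer nuclear reads, with a mean of 3.03 M against 6.37 M, and the part of depth in this was not tested. Across genes, log2 CPM correlated at r = 0.834 to 0.874 between pairs of peak libraries, at 0.895 to 0.960 between pairs of presymptomatic libraries and at 0.848 to 0.927 across the groups, with genes not independent of each other. The median SD of a gene over 4 libraries was 0.59 in peak and 0.40 in presymptomatic libraries on the log2 CPM scale, against 0.55 in naive and 0.43 in onset libraries. Among the 10077 genes with a mean CPM of 10 or more, it was 0.39 in peak and 0.25 in presymptomatic libraries, against 0.40 in naive and 0.31 in onset libraries, so the SD at peak was close to that of the naive libraries and the presymptomatic SD was the lowest of the 4 groups. Among the 932 genes with a mean CPM of 100 or more, the median SD was 0.30 in peak and 0.19 in presymptomatic libraries. It was 0.32 in naive and 0.33 in onset libraries. Along the first principal component of the 8 libraries (24.6% of variance), peak replicates 4 and 3 stood at opposite ends. The second (20.2%) set presymptomatic replicate 4 apart, and the third (18%) set peak replicate 1 apart.

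What size of difference the data could miss depends on coverage. The 95% interval of the log2 fold change lay within ±1 for 11589 genes (38.8%), namely 0.837% of genes with mean CPM under 3, 76.3% at 10 to 30 CPM and 97.6% at 100 CPM or more. An estimated fold change beyond ±1 on the log2 scale was found in 1803 genes, 996 higher and 807 lower at peak, none of them at 30 CPM or more. The sign of the fold change followed the level: 56.4% of genes at 1 to 3 CPM were higher at peak, 45.1% at 30 to 100 CPM and 35.2% at 100 CPM or more, against 53.3% of all genes, whose median log2 fold change was 0.03. Under scaling by total counts without TMM this median was -0.23, and 70 genes were higher and 809 lower at an unadjusted p under 0.05. Those totals include mitochondrial reads, whose mean share of interval reads was 53.0% at peak and 43.1% at the presymptomatic stage. The part of these reads in the shift was not tested. List medians below are to be read against the 0.03 of all genes, and most of those above 0 lay below 0 under total-count scaling.

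For individual description, 12 genes in each direction were taken by a fixed rule, the smallest edgeR p among genes whose groups did not overlap, so their lack of overlap and small p are how they were chosen and test nothing. All 24 had an edgeR adjusted p of 0.999. Ddx4, a germline RNA helicase, had 22.4, 13.0, 18.8 and 15.9 CPM in peak replicates 1 to 4 and 7.90, 7.98, 6.05 and 8.15 CPM in presymptomatic replicates 1 to 4. Its log2 fold change was 1.23 ± 0.29 (SE), with a 95% interval from 0.63 to 1.82, the smallest unadjusted p of the 24 (edgeR, 0.000212). The interval lies on chromosome 13, at 112598333 to 112652633 as deposited and counted from 1. The naive mean was 11.4 ± 2.68 CPM (SD, n = 5) and the onset mean 10.1 ± 3.11 CPM (SD, n = 3), both between the peak and presymptomatic means.

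Fam118a had 29.3, 23.5, 34.5 and 22.7 CPM at peak and 12.9, 13.5, 9.32 and 13.3 CPM at the presymptomatic stage (log2 fold change 1.17 ± 0.30). Of its window on chromosome 15, 65.8% overlaps Smc1b on the opposite strand, and ATAC-seq reads carry no strand, so the value belongs to both genes. Kpna3, an importin of the nuclear import machinery, had 23.2, 19.1, 22.2 and 17.7 CPM at peak and 9.36, 9.43, 8.03 and 12.6 CPM at the presymptomatic stage (1.08 ± 0.29). Peak values of Kpna3 were close together, and presymptomatic replicate 4 was the nearest to them. Serinc3, a membrane protein of the serine incorporator family, had 10.1, 5.13, 4.66 and 5.91 CPM at peak and 2.43, 1.81, 2.92 and 2.10 CPM at the presymptomatic stage (1.47 ± 0.38). Cbr3, a carbonyl reductase, had 15.7, 2.57, 11.7 and 2.49 CPM at peak and 1.34, 2.03, 1.63 and 1.40 CPM at the presymptomatic stage (2.35 ± 0.63). Its estimate rests on peak replicates 1 and 3, since replicates 2 and 4 lay just above the highest presymptomatic value.

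Polr1b, a core subunit of RNA polymerase I, had the same split, with 19.6 and 13.0 CPM in peak replicates 1 and 3, 6.56 and 6.84 CPM in peak replicates 2 and 4, and 3.33 to 4.92 CPM in presymptomatic libraries (log2 fold change 1.44 ± 0.40). Kansl2, a subunit of the NSL histone acetyltransferase complex, was even at peak, with 5.53, 6.84, 5.14 and 5.60 CPM, against 1.82, 1.45, 1.5 and 3.03 CPM in presymptomatic libraries (1.62 ± 0.46). Mkrn2, a makorin ubiquitin ligase, had 9.33 to 12.8 CPM at peak and 3.73 to 6.05 CPM at the presymptomatic stage (1.17 ± 0.33). The zinc finger gene Zfp850 had 6.22 to 8.55 CPM at peak and 2.45 to 3.4 CPM at the presymptomatic stage (1.35 ± 0.36). The other 3 were Acot12, an acyl-CoA thioesterase (1.21 ± 0.35), Fnbp4, a formin-binding protein (1.23 ± 0.35), and Bpifc, of the family of bactericidal permeability-increasing proteins (1.01 ± 0.29).

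Among the genes lower at peak, Adh5 had the most reads. Adh5, the glutathione-dependent formaldehyde dehydrogenase, had 13.6, 19.1, 17.2 and 14 CPM at peak and 31.6, 25.2, 31.8 and 27.7 CPM at the presymptomatic stage. Its log2 fold change was -0.86 ± 0.24 (95% interval -1.35 to -0.37), over an interval on chromosome 3 at 138437200 to 138455499. The naive mean was 28.3 ± 8.28 CPM (SD, n = 5) and the onset mean 40.2 ± 0.489 CPM (SD, n = 3), so peak had the lowest mean of the 4 groups. Slamf8, a SLAM-family receptor of macrophages and other myeloid cells, had 2.98, 1.14, 2.73 and 3.11 CPM at peak and 6.93, 4.21, 7.21 and 8.38 CPM at the presymptomatic stage (-1.43 ± 0.38). Ptgdr2, a prostaglandin receptor of eosinophils and a subset of helper T cells, had 2.69, 5.42, 2.57 and 2.49 CPM at peak and 10.1, 6.31, 8.23 and 6.29 CPM at the presymptomatic stage (-1.22 ± 0.36). Both immune-cell receptors were thus lower at peak, on few reads: Slamf8 had at most 21 reads in a peak library and at most 114 in a presymptomatic library.

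Prx, which encodes the myelin protein periaxin of Schwann cells, had 5.39, 8.12, 9.48 and 4.97 CPM at peak and 10.2, 13.0, 17.1 and 14.9 CPM at the presymptomatic stage (log2 fold change -0.96 ± 0.30), with 27.3% of its window shared with the predicted gene Gm15541. Mmp14, a membrane-bound matrix metalloproteinase, had 0.850, 0, 1.28 and 0.622 CPM at peak and 1.88, 3.55, 4.01 and 1.86 CPM at the presymptomatic stage (-2.05 ± 0.65). Psmd9, a proteasome assembly chaperone, had 1.45 to 3.11 CPM at peak and 3.83 to 9.08 CPM at the presymptomatic stage (-1.29 ± 0.42). Apela, a peptide ligand of the apelin receptor, had 1.14 to 3.11 CPM at peak and 3.83 to 9.31 CPM at the presymptomatic stage (-1.45 ± 0.49). Prl7a1, a placental hormone of the prolactin family (-1.80 ± 0.56), Lrp2bp, an LRP2-binding protein (-1.27 ± 0.42), and Dcaf12l1 (-2.01 ± 0.68) complete the set with fitted fold changes. Zfp263, a zinc finger transcription factor, had 0 reads in the 4 peak libraries and 18, 10, 4 and 4 reads in the presymptomatic libraries. Its presymptomatic mean was 5.92 times a floor of 3 reads over the peak group. Mrpl20, of the mitochondrial ribosome, had 0 reads at peak and 25 in presymptomatic libraries, with a presymptomatic mean 3.88 times that floor. The floor takes in no scatter between libraries, so neither ratio is a lower bound on a difference. Among the genes tested 17 had no read in any peak library and 1 had none in any presymptomatic library. The part of depth in these counts was not tested.

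**Figure D3:**
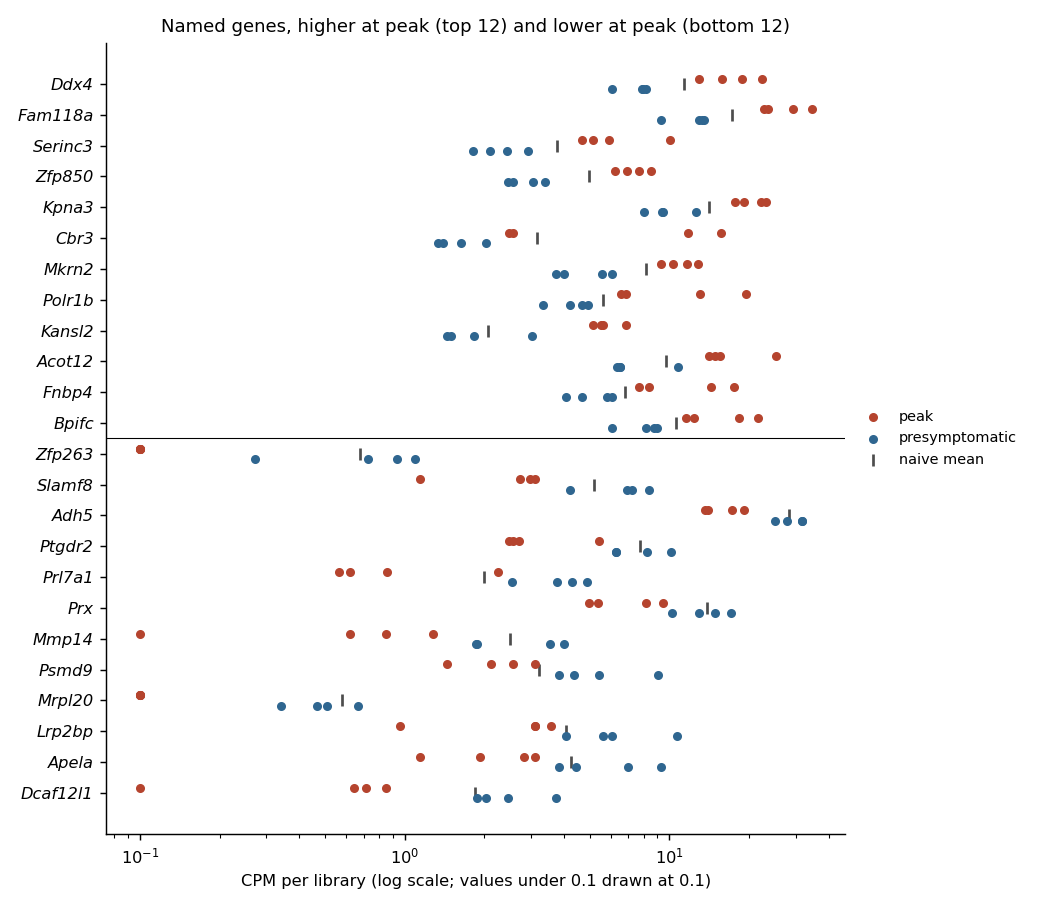
CPM per library on a log axis for the 12 genes higher and the 12 genes lower at peak, with peak libraries in red drawn above presymptomatic libraries in blue and the naive mean as a grey tick. The 2 colours do not overlap in any gene, which is how the genes were chosen, and the peak values of Cbr3 and Polr1b are widely spread.

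Retinal ganglion cell markers were not detectably different between the stages. Of 29 tested markers, 21 had a positive log2 fold change, against 53.3% of all genes, and their median was 0.21, against 0.03 for all genes. At an unadjusted p under 0.05 were 2 of the 29, beside 3.41% of all genes, and the groups overlapped in all 29. The median stayed above that of all genes by 0.06 to 0.28 under the 22 alternatives, although under total-count scaling the median itself was below 0. In bulk libraries like these, a change in the number of cells of a type and a change in openness per cell cannot be told apart.

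Rbpms, an RNA-binding protein used as a pan-ganglion-cell marker, had 83.2, 162, 101 and 94.2 CPM at peak and 85.0, 92.2, 112 and 78.5 CPM at the presymptomatic stage. Its log2 fold change was 0.26 ± 0.23 (95% interval -0.22 to 0.73), an interval that lies within ±1, and it was -0.06 under total-count scaling. Only peak replicate 2 lay above the highest presymptomatic value. Slc17a6, which encodes the transporter that loads glutamate into their synaptic vesicles, had 17.1, 24.4, 21.2 and 14.3 CPM at peak and 12.5, 13.0, 17.3 and 23.8 CPM at the presymptomatic stage (0.23 ± 0.27, and -0.05 under total-count scaling). Rbpms2 had 10.9, 9.12, 4.66 and 9.33 CPM at peak and 4.98, 4.57, 4.15 and 5.12 CPM at the presymptomatic stage (0.86 ± 0.36; edgeR unadjusted p = 0.0245, adjusted 0.999). Isl2, a homeodomain factor of ganglion cells with crossed projections, had 6.38, 6.70, 3.69 and 2.49 CPM at peak and 2.31, 2.76, 1.63 and 2.33 CPM at the presymptomatic stage (1.12 ± 0.50). In both genes a single library closed the gap between the groups, peak replicate 3 for Rbpms2 and peak replicate 4 for Isl2.

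The surface glycoprotein gene Thy1 had 3.4, 5.42, 7.87 and 2.49 CPM at peak and 5.10, 3.84, 3.13 and 0.466 CPM at the presymptomatic stage (log2 fold change 0.56 ± 0.46). Pou4f2, a POU-domain factor needed for ganglion cell differentiation, had at most 13 reads in any of the 8 libraries (1.12 ± 0.84). Its relative Pou4f1 differed by 0.05 ± 0.63, with a 95% interval from -1.25 to 1.34. Gamma-synuclein, Sncg, differed by 0.43 ± 0.72 and the neurofilament gene Nefl by 0.63 ± 0.67. For these short genes the interval admits a more than 2-fold difference in both or in 1 direction, so a moderate change was not detectable at this depth. At the other end of the list were Tbr1 (-0.44 ± 0.43), a T-box factor of ganglion cell subtypes, and Stmn2 (-0.27 ± 0.24), a stathmin of growing axons.

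**Figure D4:**
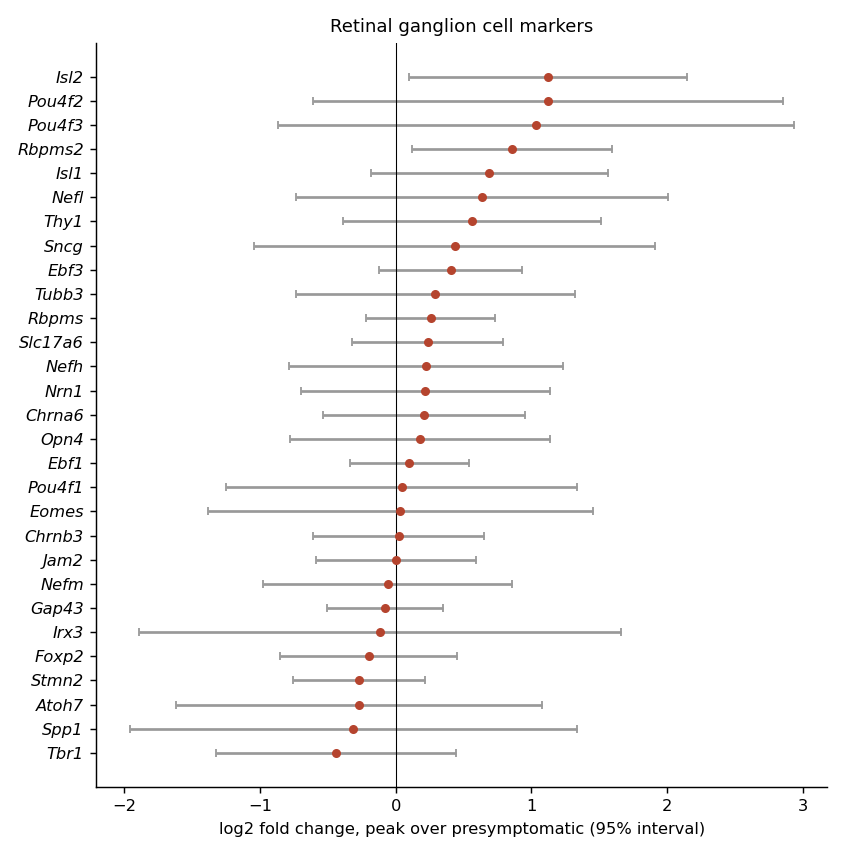
Log2 fold change of peak over presymptomatic libraries with its 95% interval for the 29 tested retinal ganglion cell markers, ordered by estimate. Intervals of Isl2 and Rbpms2 exclude 0 before adjustment, and those of the other 27 include it.

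The libraries were set against other retinal cell types by read density, in reads per kb of window and M nuclear reads. The median density over ganglion cell markers was 1.10 ± 0.382 at peak and 0.937 ± 0.0446 at the presymptomatic stage (SD, n = 4 each), against 0.681 ± 0.0571 at peak and 0.660 ± 0.0398 at the presymptomatic stage over all nuclear genes. Over bipolar cell markers it was 0.823 ± 0.0790 at peak and 0.887 ± 0.0840 at the presymptomatic stage, and over cone markers 0.891 ± 0.134 at peak and 0.821 ± 0.0527 at the presymptomatic stage. Over rod markers it was 1.12 ± 0.378 at peak and 1.05 ± 0.237 at the presymptomatic stage, and over amacrine and horizontal cell markers 1.30 ± 0.154 at peak and 1.39 ± 0.319 at the presymptomatic stage. In both groups the mean over ganglion cell markers lay above those over bipolar cell and cone markers. It lay below those over rod markers and over amacrine and horizontal cell markers. The order is one of means alone. Ganglion cell marker values of single libraries ran from 0.743 to 1.63 at peak and overlapped those of each of these types. At the presymptomatic stage they ran from 0.872 to 0.968 and overlapped those of rod, bipolar cell and cone markers. Microglia and macrophage markers had 0.623 ± 0.0944 at peak and 0.554 ± 0.0223 at the presymptomatic stage, and lymphocyte and granulocyte markers 0.450 ± 0.141 at peak and 0.460 ± 0.115 at the presymptomatic stage, both below the median of all genes in both groups.

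The level of a list in a library was taken as its mean log2 CPM less the mean log2 CPM over all genes tested. For the 19 tested rod markers this difference was 1.05, 0.74, 1.15 and 1.79 in peak replicates 1 to 4 and 0.81, 0.97, 0.84 and 1.75 in presymptomatic replicates 1 to 4. For ganglion cell markers it was 0.21, 0.69, 0.12 and -0.18 at peak and 0.17, 0.03, 0.11 and -0.06 at the presymptomatic stage. Replicate 4 of either stage, the shallowest library of its group, was thus the highest in rod and the lowest in ganglion cell markers, and the part of depth or of cell mixture in this was not tested. Between the stages, 12 of 19 rod markers were higher at peak (median log2 fold change 0.09, against 0.03 for all genes), and the median moved below that of all genes without peak replicate 4 or without presymptomatic replicate 3. Gnat1, the rod transducin subunit, had 11.2, 7.41, 6.10 and 8.71 CPM at peak and 4.25, 5.00, 5.51 and 6.29 CPM at the presymptomatic stage (0.68 ± 0.33). Gngt1, another transducin subunit, differed by -0.84 ± 0.56. Cone markers were higher in 7 of 13 (median 0.03).

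Inner retinal neurons and Müller glia had list medians below 0, with no member past the threshold. Amacrine and horizontal cell markers were higher at peak in 6 of 19 and had a median log2 fold change of -0.26, below that of all genes under each of the 22 alternatives. Those alternatives reuse the same libraries. The level of the list in single libraries overlapped between the groups, at 1.25 to 1.56 at peak and 1.29 to 1.85 at the presymptomatic stage. Members with negative values include Tfap2b (-0.56 ± 0.34), a transcription factor of amacrine cells, Gad1 (-0.48 ± 0.32), which makes GABA, and Pax6 (-0.42 ± 0.36). The 6 with positive values include Calb2 (0.44 ± 0.35) and Calb1 (0.26 ± 0.32). Tfap2b had 18.7, 9.98, 18.6 and 21.5 CPM at peak and 26.6, 27.9, 34.4 and 10.7 CPM at the presymptomatic stage, so the groups overlapped through presymptomatic replicate 4. Bipolar cell markers were higher at peak in 7 of 16 (median -0.06), with Irx6 at 0.87 ± 0.44 and Otx2 at -0.52 ± 0.44. Müller glia and astrocyte markers were higher at peak in 4 of 17 (median -0.18). Among them were Clu, which encodes clusterin (-0.64 ± 0.39), Sox9 (-0.73 ± 0.57), and glutamine synthetase, Glul (-0.64 ± 0.41), the sole member of 17 whose groups did not overlap, beside 1.21% of all genes that were lower at peak without overlap. Gfap, an intermediate filament that reactive glia increase, differed by -0.02 ± 0.58.

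Markers of infiltrating and resident immune cells showed no common direction. Microglia and macrophage markers were higher at peak in 8 of 14 (median log2 fold change 0.13, against 0.03 for all genes), among them the mannose receptor Mrc1 (0.41 ± 0.25), with 35.7, 46.5, 34.5 and 26.1 CPM at peak and 28.3, 27.5, 28.2 and 23.5 CPM at the presymptomatic stage. P2ry12, a purinergic receptor of microglia, differed by 0.12 ± 0.25, and the leukocyte phosphatase gene Ptprc by -0.37 ± 0.23. Lymphocyte and granulocyte markers were higher at peak in 10 of 18 (median 0.13), with Klrb1c, a receptor of natural killer cells, at 1.33 ± 0.66. Oligodendrocyte and myelin markers were higher at peak in 7 of 12, with Mal, a proteolipid of myelin, at 18.3, 6.98, 6.58 and 12.4 CPM at peak and 6.20, 7.40, 5.37 and 1.63 CPM at the presymptomatic stage (1.05 ± 0.39; edgeR unadjusted p = 0.0108, adjusted 0.999). The other 5 oligodendrocyte and myelin markers were lower, down to -0.66. Of the 12, 1 was lower at peak without overlap, beside 1.21% of all genes. Endothelial and pericyte markers were split 8 to 8.

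Of the inflammatory pathways, antigen presentation had the highest share of positive values, 13 of 16 members with a median log2 fold change of 0.22. None had an unadjusted p under 0.05. Among them were the immunoproteasome subunit gene Psmb9 (1.13 ± 0.95), the class II gene H2-Ab1 (1.00 ± 0.83) and the peptide transporter gene Tap2 (0.71 ± 0.46). For most of the 16 genes the standard error was as large as the estimate or larger. The classical class I gene H2-K1 had 0.283, 0, 0 and 0 CPM at peak and 0.365, 0.725, 0.544 and 0.466 CPM at the presymptomatic stage (-2.54 ± 1.32). H2-K1 had the smallest p of the list and was the 1 member of 16 lower at peak without overlap, beside 1.21% of all genes. Near-identical class I copies can share reads with it, so this value is uncertain.

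Interferon response genes were higher at peak in 21 of 35 (median log2 fold change 0.11, against 0.03 for all genes). Ifit3, an interferon-induced antiviral protein, had 4.54, 5.13, 2.89 and 3.73 CPM at peak and 1.82, 1.38, 3.61 and 1.40 CPM at the presymptomatic stage (0.96 ± 0.46; edgeR unadjusted p = 0.0441). The lowest interferon response gene lay at -1.18, and 1 of the 35 was lower at peak without overlap, beside 1.21% of all genes. NF-kB targets and cytokines were higher at peak in 7 of 20 (median -0.06). Il1a, which encodes interleukin-1 alpha, had 5.95, 4.42, 0.642 and 1.87 CPM at peak and 1.22, 1.23, 1.43 and 0.466 CPM at the presymptomatic stage (1.52 ± 0.60), and 77.9% of its window is shared with the predicted gene Gm14023. Complement genes were higher at peak in 10 of 17 (median 0.03).

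Genes of neuronal injury did not show higher accessibility at peak. The axon injury list, built around the kinase DLK that relays damage from the axon to the nucleus, was higher in 9 of 25 (median log2 fold change -0.09, against 0.03 for all genes). Jun, the transcription factor at the end of that relay, had 8.5, 18, 9.96 and 5.60 CPM at peak and 22.5, 14.6, 20.2 and 11.4 CPM at the presymptomatic stage (-0.70 ± 0.34; edgeR unadjusted p = 0.0477, adjusted 0.999). Peak replicate 2 stood among the presymptomatic values of Jun, and the other 3 peak libraries lay below them all. Its partner Atf3 differed by 0.40 ± 0.39, the kinase genes Map3k12 and Map3k13 by -0.02 ± 0.33 and 0.00 ± 0.24, and Bdnf by -0.49 ± 0.27. Sarm1, the NAD-cleaving executor of axon degeneration, differed by 0.07 ± 0.44.

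The integrated stress response was higher at peak in 8 of 19 (median log2 fold change -0.07, against 0.03 for all genes), and the unfolded protein and heat shock response in 8 of 16 (median 0.05). Immediate early genes were higher in 12 of 21 (median 0.17), with Fos at 0.55 ± 0.58 and Egr2 at -0.47 ± 0.27. Cell death genes were higher in 15 of 28 (median 0.04). The anti-apoptotic gene Bcl2l1 differed by 0.36 ± 0.23, and the BH3-only genes Pmaip1 and Bbc3 lay on opposite sides, at 0.96 ± 0.68 and -0.51 ± 0.36.

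Glutamate receptor genes were split 13 to 13 (median log2 fold change -0.00, against 0.03 for all genes), and in 22 of these 26 the 95% interval lay within ±1. Voltage-gated channel genes were higher at peak in 15 of 27 (median 0.03). Scn8a, a sodium channel of the axon initial segment and nodes, had 67.0, 46.2, 39.7 and 52.5 CPM at peak and 43.3, 33.5, 31.8 and 24.2 CPM at the presymptomatic stage (0.62 ± 0.23; edgeR unadjusted p = 0.0118, adjusted 0.999). The lowest channel gene lay at -0.72, and 1 of the 27 was lower at peak without overlap, beside 1.21% of all genes. Synapse genes were higher in 15 of 27 (median 0.01). Homer1, a postsynaptic scaffold, had 43.2, 44.5, 35.8 and 30.5 CPM at peak and 27.5, 26.1, 24.8 and 27.2 CPM at the presymptomatic stage (0.55 ± 0.23). It was the 1 synapse gene of 27 higher at peak without overlap, beside 1.51% of all genes. Axon growth and regeneration genes were higher in 17 of 31 (median 0.05). The Nogo receptor gene Rtn4r differed by 0.65 ± 0.34.

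Energy metabolism was mixed. Nuclear genes of oxidative phosphorylation were higher at peak in 19 of 26 (median log2 fold change 0.19, against 0.03 for all genes). However, the mean log2 CPM over the list, less that over all genes tested, differed by only 0.02. The median also lay below that of all genes without peak replicate 1. Ndufs4, of respiratory complex I, had 52.0, 46.8, 59.7 and 38.2 CPM at peak and 33.5, 38.8, 36.5 and 35.6 CPM at the presymptomatic stage (0.45 ± 0.21). Cox6c lay at -1.14 ± 0.69 and Uqcrfs1 at 1.17 ± 0.76. Glycolysis genes were higher at peak in 7 of 21 (median -0.04). Ldhb, the lactate dehydrogenase subunit that favours lactate use, had 7.09, 7.41, 8.83 and 9.02 CPM at peak and 3.4, 4.71, 4.69 and 3.73 CPM at the presymptomatic stage (0.95 ± 0.31; edgeR unadjusted p = 0.00461, adjusted 0.999), and its groups did not overlap. Gpi1, an upstream glycolytic enzyme, did not overlap either, in the opposite direction (-0.56 ± 0.26). Of the 21, 1 was thus higher and 1 lower without overlap, beside 1.51% and 1.21% of all genes. Cholesterol synthesis genes were higher in 13 of 22 (median 0.06), with Hmgcs1 at 0.92 ± 0.42.

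The title of the series speaks of cellular rejuvenation, so the enzymes that write and erase chromatin marks are given in more detail. Reprogramming factors and DNA methylation enzymes were higher at peak in 10 of 21 (median log2 fold change -0.02, against 0.03 for all genes). Dnmt3a, a de novo DNA methyltransferase, had 67.6, 72.6, 63.6 and 111 CPM at peak and 114, 99.9, 114 and 106 CPM at the presymptomatic stage (-0.47 ± 0.25; edgeR unadjusted p = 0.0673). Peak replicate 4 lay within the presymptomatic range of Dnmt3a and the other 3 peak libraries lay below it. The reprogramming factors Klf4 and Myc lay at -0.49 ± 0.35 and -0.14 ± 0.40, and the demethylating enzymes Tet1, Tet2 and Tet3 at -0.07 ± 0.28, -0.17 ± 0.22 and -0.06 ± 0.22. Polycomb and histone methylation enzymes were higher in 22 of 29 (median 0.18). Kdm5a, a histone demethylase, had 18.1, 14.1, 15.4 and 19.3 CPM at peak and 9.90, 12.2, 8.30 and 14 CPM at the presymptomatic stage (0.60 ± 0.29), with no overlap but a narrow gap. It was the 1 member of 29 higher at peak without overlap, beside 1.51% of all genes. Ezh2, the Polycomb methyltransferase, lay at 0.35 ± 0.32. Without peak replicate 1 the median of this list lay below that of all genes.

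Replication-cluster histone genes are among the few whose promoters were counted, because their windows, longer than the gene, reach into flanking DNA. They were higher at peak in 14 of 57 tested (median log2 fold change -0.21, against 0.03 for all genes), and 1 of the 57 had an unadjusted p under 0.05, beside 3.41% of all genes. Windows of some neighbours, such as Hist1h2ah and Hist1h2bk, overlap and count the same reads, so they are not 57 separate observations. Hist1h1e, a linker histone gene, had 4.25, 8.69, 2.89 and 12.1 CPM at peak and 15.8, 12.1, 14.4 and 10.5 CPM at the presymptomatic stage (-0.97 ± 0.40; edgeR unadjusted p = 0.0233, adjusted 0.999). Peak replicate 4 overlapped the presymptomatic values. The mean log2 CPM over the list, less that over all genes tested, was -0.23, 0.90, -0.16 and 1.17 at peak and 0.43, 0.15, 1.13 and 0.71 at the presymptomatic stage. By this measure 2 peak libraries were lowest and 1 was highest of the 8. Peak replicates 1 and 3, low in histone windows, had the lowest start enrichment of the 8, 2.09 each. Start enrichment itself counts windows of genes spanning under 1000 bp, Hist1h1e among them. The measures therefore share reads and are not separate observations. The median of the list lay above that of all genes with start enrichment as a covariate, with voom and quality weights, and without presymptomatic replicate 3.

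The promoters of 3 histone genes are printed, since for these genes the data bear on the promoter itself: Hist1h1e with the smallest p of the list, Hist1h2ab lower at peak (-0.83) and Hist3h2a higher at peak (0.71). Each is the 250 bases before the start from RefSeq (GRCm38.p6), 5′ to 3′ on the gene's strand, with CCAAT or its complement ATTGG, and TATAAA or its complement TTTATA, in capitals. They lie at chr13:23622559-23622808 on the minus strand, chr13:23750838-23751087 on the plus strand and chr11:58954435-58954684 on the plus strand, and 218, 250 and 250 of the bases are inside the counted window.
Hist1h1e: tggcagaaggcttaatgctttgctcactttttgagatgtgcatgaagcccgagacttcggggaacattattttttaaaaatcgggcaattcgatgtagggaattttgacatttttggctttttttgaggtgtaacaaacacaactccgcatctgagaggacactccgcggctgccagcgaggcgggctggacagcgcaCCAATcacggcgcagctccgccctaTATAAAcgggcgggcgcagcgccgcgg
Hist1h2ab: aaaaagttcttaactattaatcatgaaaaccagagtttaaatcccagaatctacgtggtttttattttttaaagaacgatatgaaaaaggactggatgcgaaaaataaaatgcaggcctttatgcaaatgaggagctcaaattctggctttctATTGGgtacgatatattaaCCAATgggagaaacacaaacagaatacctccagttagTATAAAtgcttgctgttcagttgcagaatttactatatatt
Hist3h2a: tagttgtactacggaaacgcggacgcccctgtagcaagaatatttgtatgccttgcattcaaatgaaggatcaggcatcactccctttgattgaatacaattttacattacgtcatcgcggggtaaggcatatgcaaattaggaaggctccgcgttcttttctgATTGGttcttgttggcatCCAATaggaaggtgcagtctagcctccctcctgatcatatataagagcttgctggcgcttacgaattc
Of 39 histone genes matched by symbol in RefSeq, 32 (82.1%) held CCAAT on either strand in these 250 bases, against 34.0% of 32619 promoters of the same length, and 18 (46.2%) held TATAAA, against 12.4%. Some of the 39 overlap, such as those of Hist1h2ah and Hist1h2bk, and so share bases. Both motifs occurred in Hist1h1e and Hist1h2ab, and CCAAT alone in Hist3h2a, so promoters with the same motif lay on both sides of 0.

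Gene families that lie in clusters shared their direction in part. All 33 tested clustered protocadherin genes, cell-surface adhesion proteins of neurons, had negative values (median log2 fold change -0.24), but their windows overlap and count the same reads, so they are not 33 separate observations. Pcdhga12 had 45.4, 45.6, 27.8 and 45.1 CPM at peak and 55.8, 46.2, 57.1 and 42.4 CPM at the presymptomatic stage (-0.30 ± 0.26), and peak replicate 3 was the lowest. Hox genes were higher at peak in 10 of 15 (median 0.51, against 0.03 for all genes), with 2 at an unadjusted p under 0.05 (3.41% of all genes), Hoxc6 (1.36 ± 0.65) and Hoxd3 (0.92 ± 0.38). Hoxd3 had 12.6, 14, 9.64 and 8.71 CPM at peak and 7.59, 6.09, 3.81 and 6.52 CPM at the presymptomatic stage, and shares 21% of its window with Hoxd4. It was the 1 Hox gene of 15 higher at peak without overlap, beside 1.51% of all genes. Only 15 of 39 Hox genes passed the filter on low counts. Olfactory receptor genes were higher at peak in 204 of 498 (median -0.15) and vomeronasal receptor genes in 78 of 179 (median -0.10). The receptor share, lower in 3 peak libraries, counts reads of these same genes and is not a separate observation. Cytosolic ribosomal protein genes were higher in 7 of 9 (median 0.65), and none of the 9 had an interval within ±1.

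**Figure D5:**
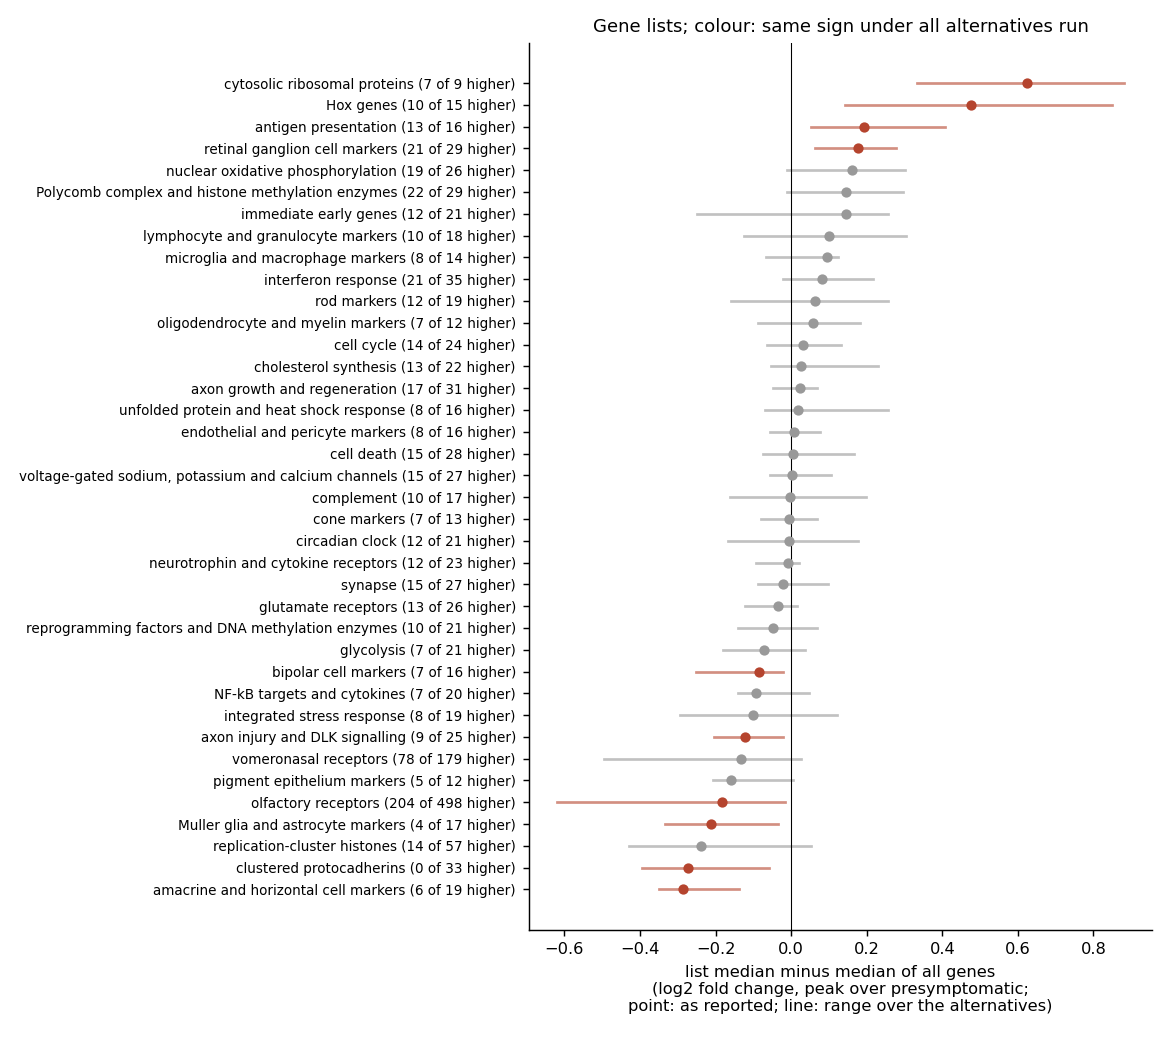
Median log2 fold change of each gene list minus the median of all genes, peak over presymptomatic, with a line for its range over 22 alternatives of scaling, filter, test and libraries (21 for cytosolic ribosomal proteins). Coloured lists keep their side of 0 in all of them, among them retinal ganglion cell markers above 0 and amacrine and horizontal cell markers below 0, and grey lists do not.

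Chromosomes differed in their share of positive values, counted over genes that are not independent of each other. On chromosome 11, 65.8% of genes were higher at peak (median log2 fold change 0.16, against 0.03 for all genes) and on chromosome 2 62.3% (median 0.11), against 40.6% on chromosome 12 (median -0.08) and 36.8% on chromosome 18 (median -0.10). Gene length moved with direction as well, from 38.4% higher among spans of 1000 to 2000 bp to 56.6% at 20000 to 100000 bp and 40.5% at 300000 bp or more. The share of nuclear reads on each of 20 chromosomes was also compared between the groups. The smallest two-sided exact permutation p was 0.0286, the least that this design allows, for chromosome 4. Its share was 6.01% at peak and 6.31% at the presymptomatic stage, with no overlap, and the p adjusted over the 20 was 0.571. In this share the groups overlapped on chromosomes 11, 2, 12 and 18 (exact permutation p = 0.257, 0.514, 0.0857 and 0.114).

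Side by side with the other stage contrasts of the same model, which share libraries with this one, peak against presymptomatic had 1019 genes at an unadjusted p under 0.05 (3.41%). There were 1080 (3.61%) for peak against naive, 1987 (6.65%) for peak against onset, 1234 (4.13%) for onset against presymptomatic, 1480 (4.95%) for onset against naive and 348 (1.16%) for presymptomatic against naive. In each of these, edgeR called 0 genes after adjustment (0.0%).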

How the data were processed

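The authors deposited 1 table with a raw count of reads per gene interval and an RPKM value for each library. Per the submitters' processing notes the tools were cutadapt, HISAT2 and HTSeq. No build, annotation, duplicate removal, read-end shift or rule for multiply aligned reads is given in the sources used here. The RPKM values deposited by the authors were used only to recover library totals and the interval length, which was the gene's span less 2000 bp. For spans under 1000 bp the window takes in the start and flanking DNA. Deposited starts, counted from 1, equal those of RefSeq GRCm38.p6 for 70.5% of shared names; 86.8% of names are shared.

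Counts of all 16 libraries were fitted with edgeR 4.0.16 (R 4.3.3): filterByExpr with a minimum count of 10 and a minimum total of 15, TMM, a mean per group, glmQLFit and glmQLFTest, with Benjamini-Hochberg adjustment over 29902 genes and a threshold of 0.05. Total reads ranged from 7.42 to 21.5 M in peak and from 8.48 to 34.0 M in presymptomatic libraries. Fold changes are peak over presymptomatic with standard errors from the F statistic, and log2 CPM has a prior count of 2. Library measures were compared by exact permutation over 70 arrangements. The fit was tested on simulated data. DESeq2 1.42.0, limma 3.58.1, other scalings, filters and covariates and each library left out in turn served as alternatives. Same-numbered libraries did not deviate together, so the numbers were not taken as pairs.

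Named genes are, in each direction, the 12 of smallest p among genes whose groups do not overlap, leaving out predicted and clone names, small RNA, mitochondrial and receptor genes and windows under 500 bp; 8 ganglion cell markers; and from each list the member of smallest p. Other list members are named as examples, and some members are not reported here. The members and the 38 lists were chosen with earlier results of these data known. The design had foreseen windows at gene starts, and the same tests were used on these gene-body counts.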

Additional observations from a re-analysis of the deposited data

Results flagged for a closer look

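Of 148 groups of 4 values examined, 10 held a library whose gap to the nearest of the others took up more of the group's whole range than the 95% critical value of Dixon's test; chance gives such a gap in about 1 in 20 groups. Peak replicate 4 held 1.58 M nuclear reads, far below the other peak libraries. Among the named genes, Ddx4 in presymptomatic replicate 3 (6.05 CPM) and Fam118a in the same library (9.32 CPM) lay below the other presymptomatic values. Acot12 had a high value in peak replicate 1 (25.2 CPM) and another in presymptomatic replicate 2 (10.8 CPM). Ptgdr2 in peak replicate 2 (5.42 CPM) was the peak value nearest to the presymptomatic range, and Pcdhga12 in peak replicate 3 (27.8 CPM) was far below the other peak values. Single libraries with any reads at all account for H2-K1 in peak replicate 1 (0.283 CPM), Olfr1176 in presymptomatic replicate 3 (0.136 CPM) and Vmn1r65 in presymptomatic replicate 1 (0.243 CPM).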

How the results depend on the processing

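The count of 0 genes past the threshold was the same under all 22 alternatives, with a smallest adjusted p of 0.0946, under the replicate block. The count at an unadjusted p under 0.05 was 1713 with receptor share and 1751 with start enrichment as a covariate, 1700 with voom and quality weights, 653 with the stricter filter, and 692 to 1706 with 1 library left out, the highest without peak replicate 3. With the replicate number as a block it was 1001 (530 higher, 471 lower). The same-numbered libraries correlated at 0.113, -0.0512, 0.0547 and -0.00446 in their deviations from group means, so the numbers do not pair them. Of 69 named genes, 4 reversed their sign under an alternative. Pou4f1 was at -0.043 with limma-trend, -0.010 with the block, -0.063 with start enrichment, -0.116 with total-count scaling and between -0.199 and 0.319 with 1 library left out, negative without peak replicates 1 or 4 or presymptomatic replicates 1 or 2. Sncg was at -0.434 with limma-trend, -0.334 with voom and between -0.408, without peak replicate 2, and 0.778 with 1 library left out. Rbpms was at -0.059 and Slc17a6 at -0.046 with total-count scaling. The causes were not tested. Of the genes under 3 CPM, 0.837% had a 95% interval within ±1 on the log2 scale.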

Other observations

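Circadian clock genes were higher at peak in 12 of 21 (median log2 fold change 0.02, against 0.03 for all genes), neurotrophin and cytokine receptor genes in 12 of 23 (median 0.02) and pigment epithelium markers in 5 of 12 (median -0.13). Hlf, a clock-controlled transcription factor, differed by 0.42 ± 0.29, and Il6st, the shared signalling subunit of the interleukin-6 receptor family, by 0.55 ± 0.30. Cell cycle genes were higher in 14 of 24 (median 0.06), with Ccne1, which encodes cyclin E, at 3.4, 1.28, 4.66 and 1.24 CPM at peak and 1.15, 0.798, 1.56 and 0.699 CPM at the presymptomatic stage (1.30 ± 0.52; edgeR unadjusted p = 0.0186, adjusted 0.999).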
